A study of Solanum lycopersicum with 6 samples.

Results

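The starch synthesis genes described here are 4 genes of ADP-glucose pyrophosphorylase (AGPase) and the gene of granule-bound starch synthase (GBSS) in tomato, chosen by identifier. Of these 5 genes, 4 have a row among the 8703 genes of the deposited table: AGPS1 (Solyc07g056140.3), which encodes the small subunit of AGPase, AGPL1 (Solyc01g109790.3) and AGPL3 (Solyc01g079790.3), which encode large subunits, and GBSS (Solyc08g083320.3). AGPL2 (Solyc07g019440), known as a further large-subunit gene, lacks one and was not analysed here; the RefSeq gene table lists it under the symbol AGP-S2, with agpL2 as a synonym. The identifiers place AGPL1 and AGPL3 on chromosome 1, AGPS1 on chromosome 7 and GBSS on chromosome 8. The names AGPL1, AGPL3 and GBSS were found in the RefSeq gene table on those chromosomes, in the order that the identifiers give. No source used here pairs the identifier of AGPS1 with that name, which rests on general knowledge.

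Starch is built in plastids from ADP-glucose. AGPase, a complex of small and large subunits, makes ADP-glucose from glucose 1-phosphate and ATP and is regarded as the controlling step of the pathway. Soluble starch synthases and branching enzymes then build amylopectin, and GBSS builds amylose inside the granule. Tomato fruit store starch transiently while green and convert it to soluble sugars as they ripen.

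RNA sequencing was done on the fruit wall (pericarp), taken at the equator of fruit from greenhouse plants at 38 days after anthesis. The fruit came from transgenic lines called jmj7 and from wild type (WT). Both have the Ailsa Craig background, and each group has 3 libraries. The series title names SlJMJ7 as a histone demethylase and asks how it bears on fruit ripening. The labels give neither the kind of transgenic change nor the number of lines, and they do not say that replicates came from separate plants or fruit, so p-values here measure the spread between these libraries alone. The prefix JQ of the columns taken as jmj7 appears in no sample label; they were assigned by elimination, and every direction rests on that.

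Reads in the table's genes numbered 10937853 to 15254146 in jmj7 libraries and 7508105 to 9155968 in WT libraries, which is part of each library, and 25.9% to 26.4% of them in jmj7 and 12.2% to 12.5% in WT came from the 10 genes with the most reads. Of 3 genes fixed as fruit wall markers all have a row, and their summed level was 28444 to 29963 FPKM in jmj7 and 1251 to 1334 FPKM in WT (FPKM, fragments per kilobase of gene, scaled to the fragments of the library). They moved in both directions: PG2a, a polygalacturonase gene of ripening fruit, averaged 14216 FPKM in jmj7 and 0.0953 in WT, and E8, a ripening gene, averaged 15194 in jmj7 and 24.3 in WT, whereas Solyc05g005560.4 averaged 2.94 in jmj7 and 1280 in WT, nearly all of the WT sum. Of 4 epidermis and cuticle markers 3 have a row, with a summed level of 0 to 0.141 FPKM in jmj7 and 154 to 168 FPKM in WT. Among these, CD1, a cutin synthase gene, and Solyc08g081220.1 had 0 reads in jmj7. Ripening stage, cell composition and genotype move together in this design and cannot be told apart. Fewer cells of a type and less RNA per cell cannot be told apart either.

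All 4 starch synthesis genes with a row fell in jmj7, AGPS1 and AGPL1 far more than AGPL3 and GBSS. AGPS1 was 101-fold and AGPL1 75.6-fold lower, while AGPL3 was 6.04-fold and GBSS 5.57-fold lower. Calls come from edgeR's quasi-likelihood test on read counts, scaled by the authors' own size factors, with Benjamini-Hochberg adjustment over all 7622 genes that passed the low-count filter. Because the table holds only genes its authors had selected for a difference, 100% of the genes tested were called, 37.2% higher and 62.8% lower, so the 4 calls themselves were set in advance and the sizes are the information. A decrease of at least 4-fold was found in 39% of the genes tested and one of at least 64-fold, a size that AGPS1 and AGPL1 passed, in 8.08%. These sizes hold with the deposited size factors: with factors recomputed on this table AGPS1 was 43.1-fold, AGPL1 32.4-fold, AGPL3 2.58-fold and GBSS 2.38-fold lower, and with total reads 207-fold, 155-fold, 12.4-fold and 11.4-fold lower. The median log2 fold change was -4.42 over the 4 genes and -1.43 over all genes tested. None of the 4 lay near -4.42: AGPS1 and AGPL1 were at -6.66 and -6.24, and AGPL3 and GBSS at -2.59 and -2.48. The levels of the epidermis, cuticle and fruit wall markers differed between the groups along with the starch synthesis genes, and their part in these results was not tested.

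The small subunit gene AGPS1 had 65.7, 59.3 and 50.6 normalized counts in the jmj7 libraries, against 5716, 6153 and 6109 in the WT libraries. A normalized count is the read count divided by the authors' size factor of that library. The highest jmj7 library lay far below the lowest WT library, so the groups did not overlap. Every jmj7 library lay below every WT library for 62.6% of the genes tested, and the groups were apart in either direction for 99.7%. The means were 58.5 ± 7.56 in jmj7 and 5993 ± 241 in WT (SD, n = 3 each). On the log2 scale the change was -6.66 ± 0.122 (SE), with an edgeR adjusted p of 1.82e-41. Of all genes tested, 6.46% had a lower log2 fold change than AGPS1.

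AGPL1 had the higher level in WT fruit of the 2 large-subunit genes with a row. It had 20, 7 and 9 reads in the jmj7 libraries and 1224, 1119 and 1369 reads in the WT libraries. These are 18.8, 9.22 and 11.4 normalized counts in jmj7, against 1054, 1048 and 1046 in WT. The WT libraries were nearly equal, with a coefficient of variation of 0.401% (1.37% in FPKM), whereas the jmj7 libraries varied by 38.1% on these few reads. A WT value this small lies below the counting error of such reads, so it is no measure of their true spread. On the log2 scale the change was -6.24 ± 0.247 (SE), with an edgeR adjusted p of 1.58e-32. Pooled over the libraries, 36 reads in jmj7 and 3712 in WT gave a 76.2-fold lower level in jmj7, with an exact 95% binomial interval from 55 to 109 that covers counting error only. For AGPS1 the same interval, on 155 reads in jmj7 and 21208 in WT, ran from 86.4 to 119, so the 2 intervals overlap.

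AGPL3, another large-subunit gene, had 58.2, 48.7 and 48.1 normalized counts in the jmj7 libraries, against 294, 342 and 313 in the WT libraries. The groups did not overlap, and the means were 51.7 ± 5.65 in jmj7 and 316 ± 23.8 in WT (SD, n = 3 each). The change was -2.59 ± 0.152 on the log2 scale (SE), with an edgeR adjusted p of 1.31e-19, and 29.8% of the genes tested had a lower one. The sources used here do not say how reads that match more than one AGPase gene were counted, which matters most for the lowest levels of AGPL1 and AGPL3.

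GBSS, the starch synthase of amylose, kept the highest level of the 4 in jmj7. It had 849, 890 and 914 normalized counts in the jmj7 libraries, against 4755, 5047 and 4938 in the WT libraries. Both groups were tight, with coefficients of variation of 3.69% in jmj7 and 3.01% in WT. The change was -2.48 ± 0.0496 on the log2 scale (SE), with an edgeR adjusted p of 4.28e-34. The authors' deposited table gives log2 fold changes of -6.66 for AGPS1, -6.26 for AGPL1, -2.60 for AGPL3 and -2.48 for GBSS in the same comparison.

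**Figure D1:**
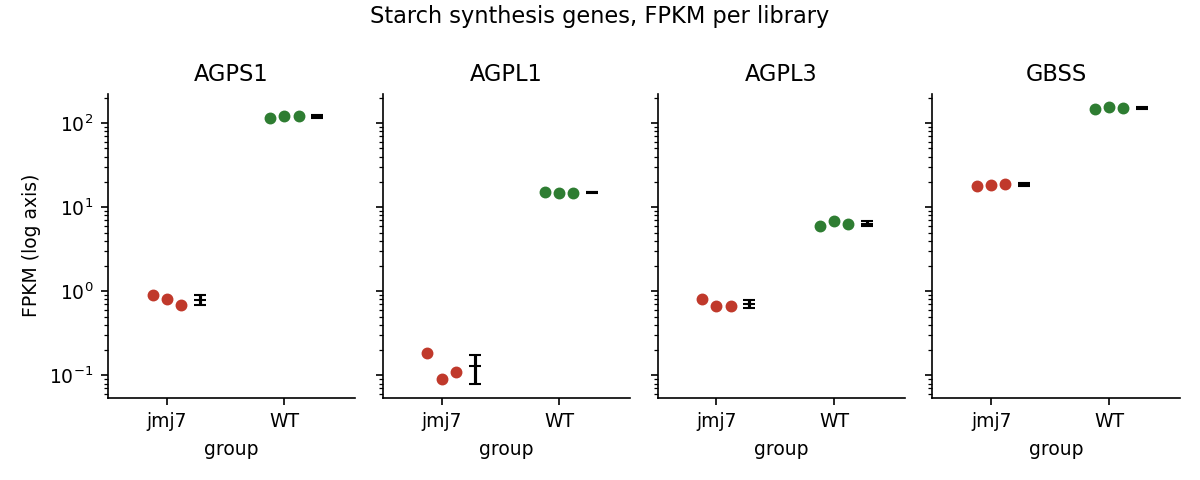
FPKM (log axis) of AGPS1, AGPL1, AGPL3 and GBSS in each of 3 jmj7 libraries (red) and 3 WT libraries (green); points are libraries in replicate order, and the black mark beside them is the mean with the SD. Every jmj7 library lies below every WT library, and AGPS1 lies at 0.796 ± 0.103 in jmj7 and 120 ± 3.66 in WT.

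Levels per gene length, in FPKM, put the 4 genes in order. In jmj7 the order was GBSS with 18.5 ± 0.675 FPKM, AGPS1 with 0.796 ± 0.103, AGPL3 with 0.711 ± 0.0784 and AGPL1 with 0.128 ± 0.0489 (SD, n = 3). In WT it was GBSS with 151 ± 3.09 FPKM, AGPS1 with 120 ± 3.66, AGPL1 with 15.1 ± 0.206 and AGPL3 with 6.41 ± 0.425 (SD, n = 3). In jmj7 the levels of AGPS1 and AGPL3 overlapped between libraries, 0.689 to 0.894 FPKM for AGPS1 and 0.662 to 0.801 FPKM for AGPL3; the other neighbours in either order did not overlap. The large subunits thus changed places, with AGPL3 above AGPL1 in every jmj7 library and AGPL1 above AGPL3 in every WT library. Ranked by FPKM among the 8703 genes, GBSS lay between places 1772 and 1844 in jmj7 libraries and between 330 and 349 in WT libraries. AGPS1 lay between places 4762 and 5033 in jmj7 and between 413 and 440 in WT.

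The 3 AGPase genes with a row summed to 1.63 ± 0.217 FPKM in jmj7 and 141 ± 3.8 FPKM in WT (SD, n = 3 each). AGPS1 supplied 48.7% ± 2.38 of that sum in jmj7 and 84.8% ± 0.352 in WT. AGPL1 supplied 7.69% ± 2.01 in jmj7 and 10.7% ± 0.439 in WT, and AGPL3 supplied 43.6% ± 1.48 in jmj7 and 4.53% ± 0.208 in WT. AGPL2 is outside this sum.

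**Figure D2:**
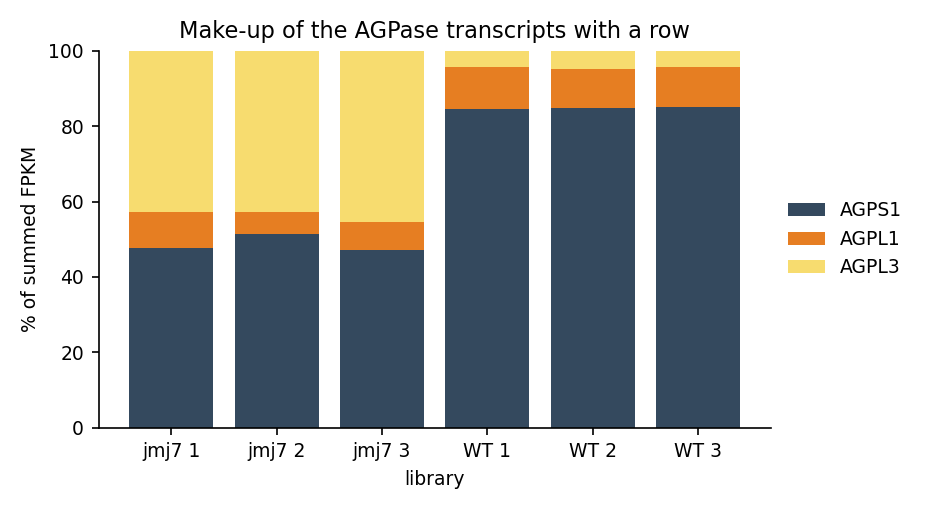
Share (%) of the summed FPKM of AGPS1, AGPL1 and AGPL3 in each library, jmj7 libraries on the left and WT libraries on the right. AGPL3 takes 42.7% to 45.3% of the bar in jmj7 and 4.4% to 4.77% in WT.

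Ratios between genes of the same library do not move with the scaling of that library. They separate the 4 genes into the same pairs as the fold changes above. As ratios and fold changes come from the same values, the ratios are no separate support for the pairs. The FPKM ratio of AGPL1 to AGPS1 was 0.205, 0.112 and 0.161 in the jmj7 libraries, against 0.132, 0.122 and 0.123 in the WT libraries, and the groups overlapped. The ratio of AGPL3 to GBSS was 0.045, 0.036 and 0.0346 in the jmj7 libraries, against 0.0407, 0.0445 and 0.0417 in the WT libraries, which also overlapped. Both had an exact two-sided permutation p of 0.4 (0.4 after Benjamini-Hochberg adjustment over 6 pairs). In the edgeR fit the log2 fold change of AGPL1 exceeded that of AGPS1 by 0.417 ± 0.275 (SE of both genes combined), with an approximate 95% interval from -0.12 to 0.96. The difference of AGPL3 from GBSS was -0.117 ± 0.16, with an interval from -0.43 to 0.20.

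Across the pairs the ratios differed by more than 10-fold. The ratio of AGPL1 to GBSS was 0.0103, 0.00482 and 0.00581 in jmj7, against 0.103, 0.0967 and 0.0987 in WT, a 15.1-fold difference between geometric means. The ratio of AGPS1 to GBSS was 0.0503, 0.0433 and 0.036 in jmj7, against 0.781, 0.792 and 0.804 in WT, an 18.5-fold difference. The ratio of AGPL3 to AGPS1 was 0.896, 0.832 and 0.961 in jmj7, against 0.0521, 0.0562 and 0.0519 in WT, a 16.8-fold difference. That of AGPL1 to AGPL3 was 0.229, 0.134 and 0.168 in jmj7, against 2.54, 2.17 and 2.37 in WT, a 13.6-fold difference. In each of these 4 pairs the groups did not overlap, and the exact two-sided permutation p was 0.1 (0.15 adjusted over 6 pairs). With 3 libraries against 3 this is the smallest p the test allows, so none can pass 0.05.

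**Figure D3:**
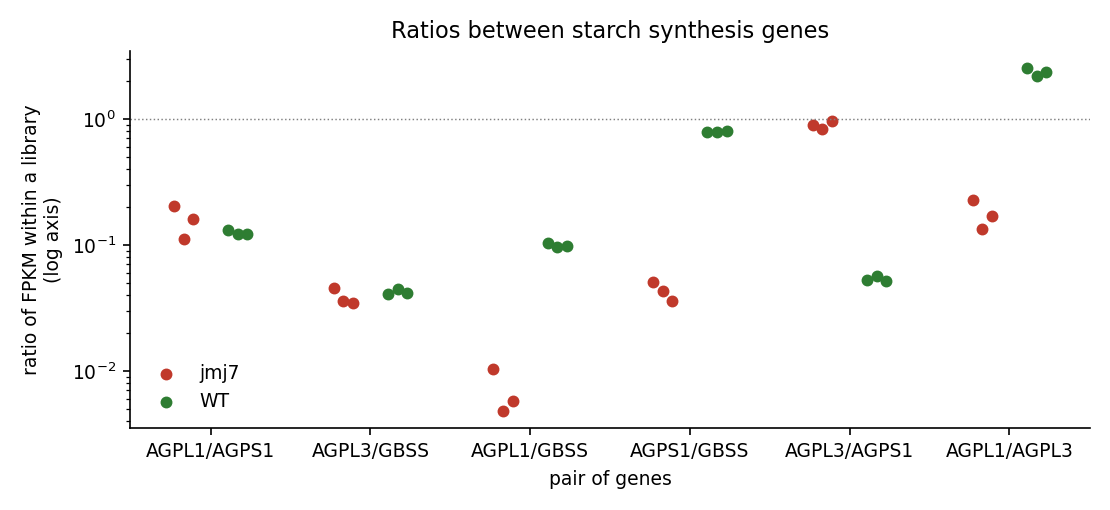
Ratio of FPKM between 2 starch synthesis genes within a library (log axis), for 6 pairs; points are the jmj7 (red) and WT (green) libraries, and the dotted line marks equal levels. AGPL1/AGPS1 and AGPL3/GBSS overlap between the groups, while AGPL3/AGPS1 lies near 1 in jmj7 (0.832 to 0.961) and near 0.05 in WT (0.0519 to 0.0562).

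The scaling of the libraries moved every fold change by a like amount. Compared with the deposited size factors, the median log2 fold change of all genes shifted by 0.34 with TMM, by 1.27 with factors recomputed by the DESeq2 method on this table, by -0.57 with the depths implied by FPKM and by -1.05 with total reads in the table. Set against that median, AGPS1 lay between -5.27 and -5.21 and AGPL1 between -4.86 and -4.79 over these scalings. AGPL3 lay between -1.21 and -1.14 and GBSS between -1.09 and -1.03. All 4 genes stayed lower and called under each scaling. With recomputed size factors 3023 genes were called higher and 3368 lower, against 2837 higher and 4785 lower with the deposited ones.

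**Figure D4:**
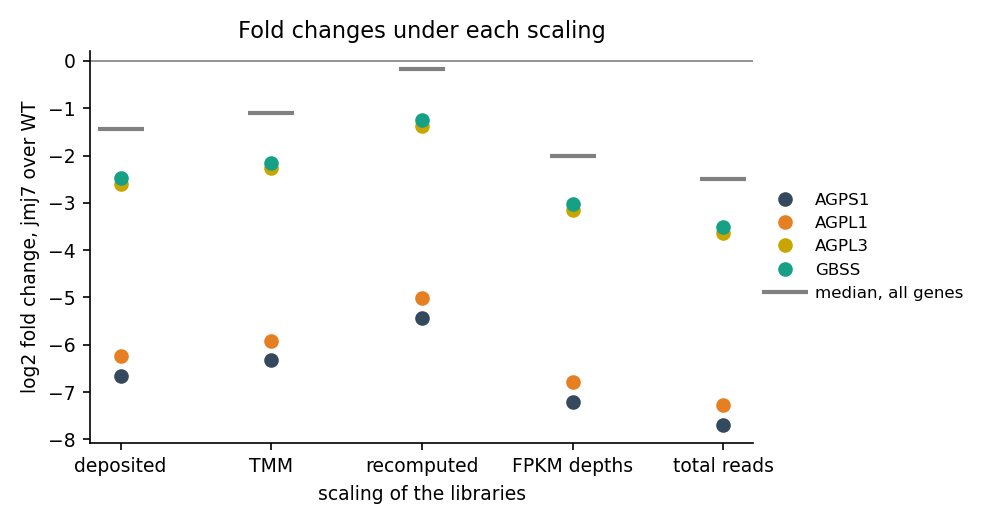
Log2 fold change of AGPS1, AGPL1, AGPL3 and GBSS, jmj7 over WT, under 5 scalings of the libraries, with the median of all genes tested as a grey bar. The 4 genes and the median move together, and GBSS runs from -3.52 with total reads to -1.25 with recomputed size factors.

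Listed genes of the route from sucrose to starch moved in both directions. Of 30 identifiers, 13 were tested, of which 8 rose and 5 fell, where 37.2% of all genes tested rose and 62.8% fell; the median log2 fold change was 1.19, against -1.43 over all genes, and 17 lack a row. With total-read scaling, 6 rather than 8 were called higher. Of the 18 identifiers listed under sucrose cleavage and hexose phosphorylation, 6 were tested. Of these 3 rose and 3 fell, with a median log2 fold change of 0.23. The 18 include identifiers listed as UDP-glucose pyrophosphorylase, which does neither. Solyc05g054060.3, listed so without a check, was among those that fell, on 3 reads in jmj7 and 54 in WT. SUS1 (Solyc12g009300.3), a sucrose synthase that cleaves imported sucrose, fell to 226 ± 9.59 normalized counts in jmj7, against 12240 ± 336 in WT (SD, n = 3). The change was -5.75 ± 0.0703 on the log2 scale (SE), with an edgeR adjusted p of 1.46e-43. Solyc03g098290.3, also listed as a sucrose synthase, a label that was not checked, went the other way. It was at 2951 ± 52.8 normalized counts in jmj7 and 250 ± 17.4 in WT (SD, n = 3), 11.9-fold higher. TIV1 (Solyc03g083910.4), the vacuolar acid invertase, was at 469509 ± 919 normalized counts in jmj7 and 5740 ± 205 in WT, 81.8-fold higher. LIN5 (Solyc09g010080.3), a cell wall invertase gene, rose 3.47-fold, but 1.69-fold with total-read scaling and 8.13-fold with recomputed size factors. FRK2 (Solyc06g073190.3), a fructokinase gene, was 2.51-fold lower, but 5.15-fold lower with total-read scaling and 1.07-fold lower with recomputed size factors. By the same settings, total reads and then recomputed factors, SUS1 was 111-fold and 23.0-fold lower and TIV1 39.8-fold and 192-fold higher.

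Genes of starch breakdown were split at a share close to that of the whole table. Of 19 identifiers, 8 were tested, of which 3 rose and 5 fell, against 37.2% higher and 62.8% lower over all genes tested; the median log2 fold change was -1.94, against -1.43 over all genes, and 11 lack a row. With recomputed size factors 1 of the 5, whose identifier is not paired with a name, changed direction and lost its call. PHO1a (Solyc03g065340.3), a starch phosphorylase gene, fell to 1052 ± 23.2 normalized counts in jmj7, against 8672 ± 217 in WT (SD, n = 3), 8.26-fold lower; this was 16.97-fold with total-read scaling and 3.52-fold with recomputed size factors. BAM1 (Solyc09g091030.3) and BMY3 (Solyc01g067660.3), named as beta-amylase genes, were 3.65-fold and 2.11-fold higher. Beta-amylases as a family release maltose from starch, and whether each of these does was not tested. BAM1 was 1.78-fold higher with total-read scaling and 8.55-fold with recomputed size factors. With total-read scaling BMY3 lost its call, at a log2 fold change of 0.03 (edgeR adjusted p = 0.321). BMY3 was 4.93-fold higher with recomputed size factors.

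Regulators linked to fruit starch were 7 identifiers, all with a row. Of these 6 were tested, of which 2 rose and 4 fell, a share near the 37.2% higher and 62.8% lower of all genes tested, and the median log2 fold change was -1.88, against -1.43 over all genes. The remaining 1, TKN2 (Solyc02g081120.3), a homeobox gene with 0 reads in jmj7 and 32 in WT, was below the low-count filter. GLK2 (Solyc10g008160.3), a transcription factor that promotes chloroplast development in green fruit, fell to 12.6 ± 2.23 normalized counts in jmj7, against 1187 ± 147 in WT (SD, n = 3), a change of -6.54 ± 0.287 on the log2 scale (SE) with an edgeR adjusted p of 1.28e-31. TKN4 (Solyc01g100510.3), a homeobox gene, was 7.57-fold and ARF4 (Solyc11g069190.2), an auxin response factor gene, 4.16-fold lower. With total-read scaling and recomputed size factors in turn, TKN4 was 15.5-fold and 3.24-fold lower, ARF4 8.55-fold and 1.78-fold lower, and GLK2 191-fold and 39.95-fold lower. GLK1 (Solyc07g053630.3), a relative of GLK2, was 3.24-fold lower on 28 reads in jmj7 and 123 in WT. It lost its call with recomputed size factors (edgeR adjusted p = 0.243) and was 6.63-fold lower with total-read scaling. TAGL1 (Solyc07g055920.3), a MADS-box gene of fruit development, rose 2.17-fold, but 1.06-fold with total-read scaling and 5.09-fold with recomputed size factors. The other listed regulator that rose, Solyc08g077230.3, is not paired with a name here. It was at 785 ± 44.5 normalized counts in jmj7 and 43.2 ± 8.12 in WT (SD, n = 3), 18.1-fold higher.

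**Figure D5:**
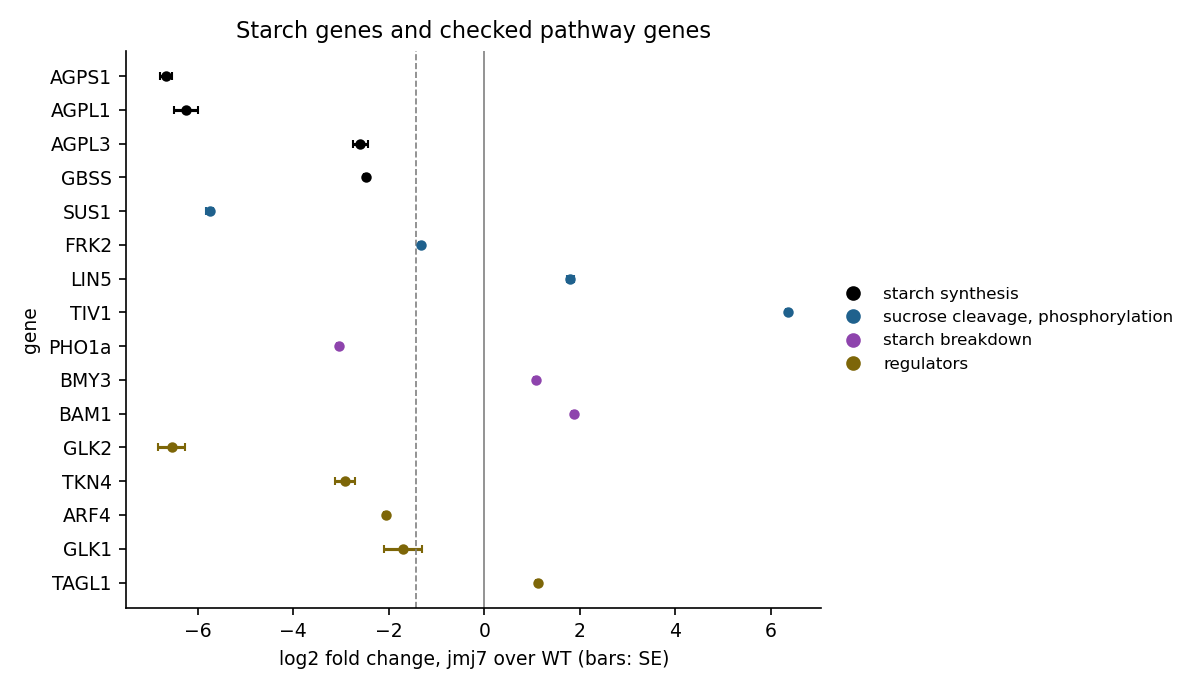
Log2 fold change, jmj7 over WT, with its SE for the 4 starch synthesis genes (black) and for the listed pathway genes whose name was found in the reference, by list; the solid line marks no change and the dashed line the median of all genes tested (-1.43). AGPS1, AGPL1, GLK2 and SUS1 lie between -6.66 and -5.75.

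Likeness of pattern was measured as the root-mean-square difference between centred log2(normalized count + 1) values over the 6 libraries, which is dominated by the group difference. AGPS1 and AGPL1 differed by 0.307, and AGPL3 and GBSS by 0.137, whereas genes of different pairs differed by 1.85 to 2.10. Among the 12 named pathway genes tested, the nearest to AGPS1 were GLK2 at 0.191 and SUS1 at 0.460, and the same genes were nearest to AGPL1 at 0.348 for GLK2 and 0.365 for SUS1. PHO1a at 0.261 and ARF4 at 0.294 were nearest to AGPL3, and ARF4 at 0.212 and TKN4 at 0.257 were nearest to GBSS. Over the whole table the nearest gene was Solyc05g056070.3 for AGPS1, at 0.0889, and Solyc10g074540.1 for AGPL1, at 0.0922. For AGPL3 it was Solyc06g074030.1, at 0.0526, and for GBSS Solyc01g087850.2, at 0.0250, so each of the 4 genes had a gene outside the group nearer to it than the other gene of its pair; no source used here pairs these identifiers with names.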

How the data were processed

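Reads were processed with HISAT2, per the submitters' processing notes. The version, the counting tool, the build and whether strand was used are not given in the sources here. The authors' deposited table holds read counts per library, FPKM values and a normalized signal, which equals the count divided by 1 size factor per library (0.759 to 1.07 for jmj7, 1.07 to 1.31 for WT). It also holds the authors' log2 fold changes with p-values, per the file headers; the 8703 genes were preselected, with p no higher than 0.0499 and changes of over 2-fold. The ratio of count to FPKM gave 1 relative depth per library, used as an alternative scaling.

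Counts were tested with edgeR 4.0.16 (R 4.3.3; glmQLFit, glmQLFTest, prior count 0.125). Genes were filtered by filterByExpr (minimum count 10) and libraries scaled with the deposited size factors. TMM and the recomputed size factors both assume that most genes are unchanged, which a table of selected genes breaks. The recomputed factors brought the median log2 fold change of all genes from -1.43 to -0.16, so folds under them carry that shift. A call is a Benjamini-Hochberg adjusted p under 0.05 over all genes tested. The SE is a Wald error based on the fit's means and its quasi-likelihood dispersions. Alternatives were TMM, recomputed size factors, total reads, FPKM-implied depths, no filter, DESeq2 1.42.0, limma 3.58.1 on FPKM, a replicate block and leaving out each library. The script was tested on simulated data in which most genes were unchanged. This table differs in that, so the simulation checks the code and not the calls made here. Replicate pairs differed by more than sampling noise (chi-square per gene 1.6 to 3.52), so none was treated as the same library sequenced again. This cannot show whether the libraries came from separate plants or fruit.

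The starch synthesis genes and the lists were chosen with earlier results of these data known, the lists from general knowledge of tomato. A listed gene is named only where its symbol or a synonym lies in the RefSeq table (assembly SLM_r2.1) on the chromosome its identifier gives and in a compatible order; other identifiers stay in the counts unnamed, and 2 out of order were removed. Named are all starch synthesis genes with a row, every such checked list gene that was tested, and the genes nearest in pattern. TKN2, below the filter, the fruit wall markers and the markers at 0 reads were named after their values were seen. Solyc03g098290.3, Solyc05g054060.3 and Solyc08g077230.3, none paired with a name, were also added after their values were seen.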

Additional observations from a re-analysis of the deposited data

How the results depend on the processing

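AGPS1, AGPL1, AGPL3 and GBSS stayed lower in jmj7 with adjusted p under 0.05 in each of the 15 alternatives run per gene. Most genes of this preselected table kept their call too, so this sets the 4 genes little apart. With recomputed size factors 1152 of 7441 genes lost their call, and 528 changed direction. With total reads 673 of 7558 lost it, and 137 changed direction. In every other alternative at most 70 calls were lost and no direction changed. Leaving out each library gave folds of 95 to 109 for AGPS1, 66.7 to 100 for AGPL1, 5.81 to 6.52 for AGPL3 and 5.45 to 5.66 for GBSS. Over the other alternatives folds ran from 43.1 to 207 for AGPS1, 14.2 to 155 for AGPL1, 2.58 to 12.4 for AGPL3 and 2.38 to 11.4 for GBSS. The lowest for AGPL1 came from log2(FPKM + 1), where the added 1 exceeds its jmj7 level. Genes changed at least 2-fold numbered 2828 higher and 4777 lower. The higher count was 979 with total-read scaling, 1493 with FPKM-implied depths (an alternative added after seeing the data), 1208 with limma on log2(FPKM + 1) and 1498 on log2(FPKM + 0.1). The lower count was 2544 with recomputed size factors. The log2 ratio of AGPL1 to GBSS, -3.91 in jmj7 minus WT, ran from -4.23 to -3.69 when each library was left out. Same-numbered libraries did not deviate together (correlations of -0.028, 0.0253 and -0.01). The labels do not say whether the numbers pair them. With the replicate block, 2837 genes were called higher and 4785 lower. The AGPL1 to GBSS ratio had the same value, which was certain because a mean of paired differences equals the difference of means. Its exact p over swaps of group within the numbered pairs was 0.25, against a permutation p of 0.1 without pairing. Each is the smallest p that its test allows, so their difference says nothing about pairing. Depth limits AGPL1 most, with 7 to 20 reads per jmj7 library.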

Other observations

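Other listed steps of starch building were counted by identifiers that no source used here pairs with names. Of 4 listed as starch synthases other than GBSS, 3 were tested and all 3 rose in jmj7, 2.29-fold to 3.31-fold, where 37.2% of all genes tested rose; with total-read scaling the changes were 1.11-fold to 1.61-fold and 1 of them lost its call, and with recomputed size factors they were 5.36-fold to 7.76-fold. Of 5 listed as branching and debranching enzymes, 3 were tested, of which 1 rose 3.94-fold and 2 fell, by 2.80-fold and 42.4-fold (1.20-fold and 18.1-fold with recomputed size factors). With total-read scaling the rise was 1.91-fold and the larger fall 86.8-fold. These list labels come from general knowledge and were not checked.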
